A study of Mus musculus with 6 samples.

Results

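The myeloid C-type lectin receptors examined here are 10 mouse genes, Clec4a1, Clec4a2, Clec4a3, Clec4d, Clec4e, Clec4n, Clec5a, Clec7a, Clec10a and Mgl2, chosen by symbol as members of 1 receptor family. All 10 were found among the 24391 genes of the count table and the 23284 genes of the FPKM table, and all 10 passed the filter on low counts that left 12710 genes for testing. RNA had been sequenced from tumour-associated macrophages (TAMs, macrophages sorted from a tumour) of colorectal tumours in BALB/c mice, either wild type (WT) or lacking the chemokine gene Ccl5 (CCL5-/-). The sort gate labelled CD11b-high and F4/80-low (F4/80low) had 2 WT and 2 CCL5-/- libraries with read counts. The gate labelled CD11b-low and F4/80-high (F4/80hi) was represented by a single library of each labelled genotype, with FPKM values (fragments per kilobase of transcript at a fixed sequencing depth). The labels give no other allele or treatment, no age or sex, and do not say which cells of the CCL5-/- tumours lacked Ccl5. They also do not say whether replicates came from separate mice, and a p-value then covers only the variation among these libraries, possibly technical variation.

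C-type lectin receptors are surface proteins with which myeloid cells bind sugars and glycolipids on microbes, dying cells and tumour cells. Clec4e (Mincle), Clec4d (MCL) and Clec4n (Dectin-2) signal through the adaptor encoded by Fcer1g, and Clec7a (Dectin-1) carries its own activation motif. All of these engage the kinase Syk and then Card9, which leads to NF-kB activity and cytokine production. Clec5a (MDL-1) uses the adaptor encoded by Tyrobp. Clec4a2 (DCIR) is an inhibitory receptor, while Clec10a and Mgl2 bind galactose-type sugars and are widely used as markers of alternatively activated macrophages and of some dendritic cells.

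Some features of the libraries bear on every value below. Ccl5 was at 43.8 and 131 CPM (counts scaled to library size, here by the TMM method) in WT replicates 1 and 2 and at 4.07 and 3.01 CPM in CCL5-/-, as the labels state. The ribosomal RNA precursor Rn45s took 58.4% and 50.0346% of counts in the replicate 1 libraries and 0.844% and 1.38% in the replicate 2 libraries, out of totals from 9280635 to 22411342. The CD11b gene Itgam had 598 and 580 CPM in the replicate 1 libraries, against 180 and 144 CPM in the others, whereas the F4/80 gene Adgre1 had 35.6 to 51.8 CPM in WT and 35.3 to 53.7 CPM in CCL5-/-. Last, the F4/80hi pair matched the F4/80low replicate 1 pair crosswise in the ratio of the libraries gene by gene. Set against the split of replicate 1 reads over 6677 genes with 20 to 400 reads, the F4/80hi ratio gave a median chi-square of 0.334, where independent reads give 0.455. The other 11 ways to pair the libraries gave 3.58 to 9.0. In F4/80hi, the library labelled CCL5-/- went with WT replicate 1, and that labelled WT with CCL5-/- replicate 1. These are counted as the same 2 libraries, so there are 4 libraries in all, and from which gate the replicate 1 pair came is not settled. The genotype comparison of every receptor is therefore also given within each same-numbered pair, and so are those of some other genes.

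The receptor genes lie in a few places of the GRCm38 genome. A set of 6 members shares a cluster of 368 kb on chromosome 6 (122921848 to 123289871) with 3 other protein-coding lectin genes, Clec4a4, Clec4b1 and Clec4b2. In order they are Clec4a1, Clec4a3, Clec4a2, Clec4n, Clec4d and Clec4e, all on the plus strand except Clec4e. Clec4d (123262107 to 123275268) and Clec4e (123281789 to 123289871) are 6520 bases apart, end to end. Clec5a (40574898 to 40585805) and Clec7a (129461591 to 129472785) lie elsewhere on chromosome 6, both on the minus strand. Mgl2 (70130125 to 70137542) and Clec10a (70166623 to 70170836) are neighbours on the plus strand of chromosome 11, 13.4 Mb from Ccl5 (83525778 to 83530518). Their longest open reading frames were 89.2% identical, the closest of all pairs, followed by Clec4a2 with Clec4a3 at 76.0%. Of the 50-base stretches in their annotated transcripts, 13.1% for Mgl2 and 9.02% for Clec10a also occurred in another gene, mainly the partner. The share was 6.69% for Clec4a2, 0.686% for Clec4n and 0% for the other 6 members. A read of at most 50 bases inside such a stretch fits another gene too. The length of the reads and how such reads were counted were not examined. The split between Mgl2 and Clec10a may therefore be the least certain.

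Promoters from RefSeq (GRCm38.p6, from 250 bases before to 50 bases after the annotated start, so 300 in length) were on hand for 8 of the 10 genes, not for Clec4n and Clec10a. The promoters of Clec4e and Clec4d are printed because these were the most abundant neighbours and kept nearly the same ratio in every library, and that of Mgl2 because its level went the other way. They are read 5′ to 3′ on the gene's strand, from chr6:123289822-123290121 (minus), chr6:123261857-123262156 (plus) and chr11:70130107-70130406 (plus). Capitals mark matches to the motifs searched.
Clec4e: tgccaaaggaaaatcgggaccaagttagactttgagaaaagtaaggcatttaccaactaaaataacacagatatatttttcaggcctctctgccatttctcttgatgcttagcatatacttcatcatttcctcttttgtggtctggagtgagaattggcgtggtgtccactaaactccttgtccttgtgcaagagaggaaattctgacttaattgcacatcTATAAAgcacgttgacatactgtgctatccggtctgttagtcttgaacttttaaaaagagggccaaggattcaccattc
Clec4d: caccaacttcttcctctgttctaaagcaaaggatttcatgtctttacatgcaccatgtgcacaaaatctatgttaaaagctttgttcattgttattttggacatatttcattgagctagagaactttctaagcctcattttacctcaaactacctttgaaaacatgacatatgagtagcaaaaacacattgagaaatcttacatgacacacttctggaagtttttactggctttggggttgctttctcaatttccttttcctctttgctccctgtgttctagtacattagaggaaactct
Mgl2: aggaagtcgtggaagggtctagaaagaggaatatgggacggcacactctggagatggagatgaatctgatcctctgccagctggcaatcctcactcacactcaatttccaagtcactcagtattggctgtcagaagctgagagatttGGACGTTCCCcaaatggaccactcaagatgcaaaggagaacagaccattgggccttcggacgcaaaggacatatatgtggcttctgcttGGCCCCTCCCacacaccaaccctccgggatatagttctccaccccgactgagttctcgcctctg
Both strands were searched for TATAAA (the TATA box), TGA and TCA with any base between them (AP-1), TTCNNNGAA (STAT), GAGGAAGT (PU.1) and, for NF-kB, 3 G, any 5 bases and 2 C, and matches could overlap. A TATA box in Clec4e began 29 bases before the start, and 13.6% of all 32851 promoters held that motif. Mgl2 held 2 matches to the NF-kB letters, which 50.8% of all promoters contained. The Mgl2 start that RefSeq uses for this promoter lies inside the span of the gene given above. Clec4d had no match, which says only that these letters are not in this window. Over the 10 promoters of the 8 genes, the numbers with a match were 4 for the TATA box, 1 for AP-1, 1 for STAT, 0 for PU.1 and 2 for NF-kB, against 13.6%, 7.81%, 8.3%, 3.2% and 50.8% of all promoters. These counts take no account of position. Apart from that of Clec4e, the TATA matches began 209 bases before the start in Clec5a, 161 before it in Clec4a2 and 42 after it in Clec7a.

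Per length, Clec4d, Clec4n, Clec4e and Clec7a led in every library. In CPM per kb of annotated exon, Clec4d was at 204 and 230 in WT and 154 and 101 in CCL5-/-, Clec4n at 141, 199.802, 127 and 125, and Clec4e at 114, 146, 86.4 and 59.9. Clec7a came next, at 55.6, 90.9, 56.3 and 42.9. These 4 held the first 4 places in each of the libraries, though their order was Clec4d, Clec4n, Clec4e in the first 3 and Clec4n, Clec4d, Clec4e in CCL5-/- replicate 2. Clec4d and Clec4n were at 172 ± 57.0 and 148 ± 35.2 (mean ± SD over 4 libraries), and whether they differ was not tested. That SD is over both genotypes and takes in the difference between them. Clec4a2, Clec4a1, Clec4a3 and Clec5a formed a lower group with means of 20.4, 16.8, 16.5 and 15.9 whose ranges overlapped. Mgl2 was at 11.4 ± 1.46, within reach of the lowest values of Clec4a1, Clec4a3 and Clec5a, and Clec10a was lowest in each library, at 2.21 ± 0.671. The order near the top rests on the transcript length used. The authors' FPKM, which uses other lengths, put Clec4e (320 and 455) level with Clec4d (330 and 452) and above Clec4n (280 and 317) in the libraries labelled F4/80hi WT and CCL5-/-.

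The first comparison was of CCL5-/- with WT in the F4/80low gate. No member passed the test. In all, 8 of the 10 had a negative log2 change (CCL5-/- over WT), as had 51.9% of all genes tested, with a median of -0.50 over the members and -0.01 over all genes. The largest were those of Clec4a3 (-0.89), Clec4e (-0.83) and Clec4d (-0.77), while Mgl2 (0.22) and Clec10a (0.23) had positive values. In edgeR's quasi-likelihood test with Benjamini-Hochberg adjustment the share of genes that passed was 0%, members included. An unadjusted p under 0.05 was reached by 41 genes, or 0.323%, and by 0 members. That fit had no term for the replicate number, between which 31.8% of genes passed. Ccl5 itself, with a log2 change of -4.64 (SE 0.69), did not pass in it. With the replicate number as a term Ccl5 did not pass either (edgeR adjusted p = 0.0985). A receptor that did not pass may therefore still differ. DESeq2 passed 1 gene, Ccl5, and limma-voom 0. The members' unadjusted p ran from 0.0789 for Clec4a3 to 0.671 for Clec10a, with an adjusted p of 1.0 for each.

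The order of the libraries is given here as a description. In 6 of 10 members both CCL5-/- libraries lay below both WT libraries, which held for 8.24% of all genes. In 1 member they lay above, against 8.36%, and in 3 the groups overlapped. Levels were lower in CCL5-/- within both same-numbered pairs for 7 members, against 26.5% of genes, and higher within both for 1, against 24.8%. The pairs differed in size. In the replicate 1 pair 7 members were lower (49.3% of genes) and 0 by at least 2-fold (4.8%). In the replicate 2 pair 9 were lower (52.3%) and 4 by at least 2-fold (5.12%). The members' medians were -0.08 for replicate 1 and -0.81 for replicate 2, beside 0.01 and -0.02 over all genes. With only 1 library per genotype in each pair, the difference between pairs could not be tested.

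**Figure D1:**
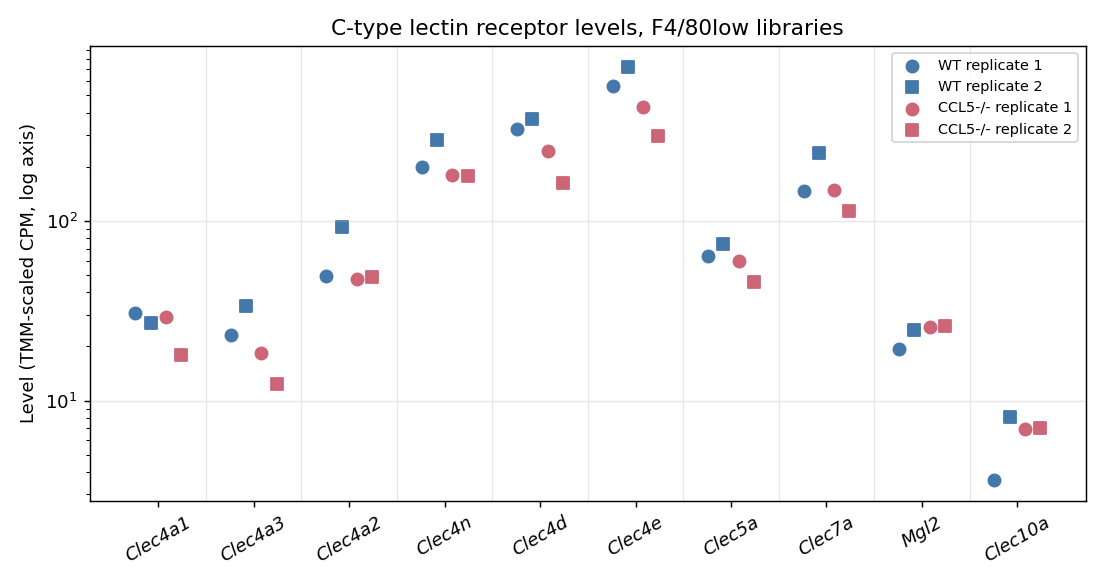
Level of each receptor gene (horizontal axis, the chromosome 6 cluster first, then Clec5a, Clec7a and the chromosome 11 pair) in TMM-scaled CPM on a log axis. Each point is 1 F4/80low library, blue for WT and red for CCL5-/-, circles for replicate 1 and squares for replicate 2. The red points lie below the blue ones for 6 of the 10 genes, and above them for Mgl2.

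Among the receptors that signal through the Fcer1g adaptor, Clec4e, which recognises mycobacterial cord factor and products of dead cells, had the most reads. Its level was 565 and 723 CPM in WT replicates 1 and 2 and 429 and 297 CPM in CCL5-/-. The groups did not overlap, and CCL5-/- replicate 2 was the lowest. Group means were 644 ± 112 and 363 ± 93.0 CPM (SD, n = 2). The fit gave a log2 change of -0.83 (SE 0.49). Within pairs it was -0.40 for replicate 1 (95% counting interval -0.47 to -0.33) and -1.28 for replicate 2 (-1.32 to -1.25). Such intervals, exact binomial, cover the counting of reads only. Its neighbour Clec4d, which forms a complex with Mincle, was at 326 and 368 CPM in WT and 246 and 162 CPM in CCL5-/-. Again the groups were apart, with a log2 change of -0.77 (SE 0.45) and pair values of -0.41 and -1.19. Without CCL5-/- replicate 2 the change was -0.50 for Clec4d and -0.59 for Clec4e. The ratio of Clec4e to Clec4d was 1.73 and 1.96 in WT and 1.74 and 1.84 in CCL5-/-, so the genotypes overlapped in it. Clec4n, the Dectin-2 gene that binds fungal mannans, was at 199.783 and 284 CPM in WT and at 180 and 178 CPM in CCL5-/-. Here WT replicate 2 stood above the other libraries, which lay between 178 and 199.783 CPM. Its log2 change was -0.43 (SE 0.42), with -0.15 and -0.67 in the pairs, and -0.16 without WT replicate 2.

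Clec7a, the beta-glucan receptor Dectin-1, was at 147 and 240 CPM in WT and at 148 and 113 CPM in CCL5-/-. The groups overlapped, because the replicate 1 libraries were level with each other (pair value 0.02, counting interval -0.11 to 0.14) while the replicate 2 pair had -1.08 (-1.15 to -1.02). Its fitted log2 change was -0.56 (SE 0.45), and -0.17 without WT replicate 2. Clec5a, the Tyrobp-coupled receptor of monocytes and neutrophils, was at 63.9 and 74.4 CPM in WT and at 59.7 and 45.6 CPM in CCL5-/-. The groups were apart, though the counting interval of the replicate 1 pair, -0.29 to 0.10, includes 0. The fitted value was -0.39 (SE 0.37), with -0.10 and -0.71 in the pairs, and -0.21 without CCL5-/- replicate 2.

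The DCIR genes differed in their order of libraries. Clec4a2, which encodes the inhibitory receptor DCIR, was at 49.3 and 92.9 CPM in WT and at 47.5 and 49.0 CPM in CCL5-/-. Its groups were barely apart, and WT replicate 2 alone was high. The log2 change was -0.56 (SE 0.44), with -0.05 and -0.92 in the pairs, and -0.03 without WT replicate 2. Clec4a3 (DCIR3) was at 23.0 and 33.7 CPM in WT and at 18.4 and 12.4 CPM in CCL5-/-, with the groups apart. It had the members' largest log2 change, -0.89 (SE 0.41), with -0.32 (counting interval -0.67 to 0.02) and -1.44 (-1.63 to -1.27) in the pairs. Without WT replicate 2 it was -0.59. Clec4a1 (DCIR4), the outermost gene of the cluster, was at 30.6 and 27.2 CPM in WT and at 29.2 and 17.8 CPM in CCL5-/-. Only CCL5-/- replicate 2 was low, and the groups overlapped. Its log2 change was -0.30 (SE 0.40), with -0.07 and -0.61 in the pairs, and 0.02 without CCL5-/- replicate 2.

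The galactose-binding pair on chromosome 11 had other orders of the libraries. Mgl2 (CD301b) was at 19.4 and 24.8 CPM in WT and at 25.7 and 25.9 CPM in CCL5-/-. The CCL5-/- libraries were above both WT libraries, and little above WT replicate 2. The log2 change was 0.22 (SE 0.35), with 0.40 and 0.06 in the pairs, and 0.075 without WT replicate 1. Clec10a (CD301a), the least abundant member, had 21 and 246 reads in WT and 60 and 191 in CCL5-/-, or 3.61 and 8.09 CPM against 6.97 and 7.01 CPM. WT replicate 1 was the lowest and WT replicate 2 the highest, so the groups overlapped. The log2 change was 0.23 (SE 0.52), with 0.93 (counting interval 0.21 to 1.74) and -0.20 in the pairs, and -0.19 without WT replicate 1.

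**Figure D2:**
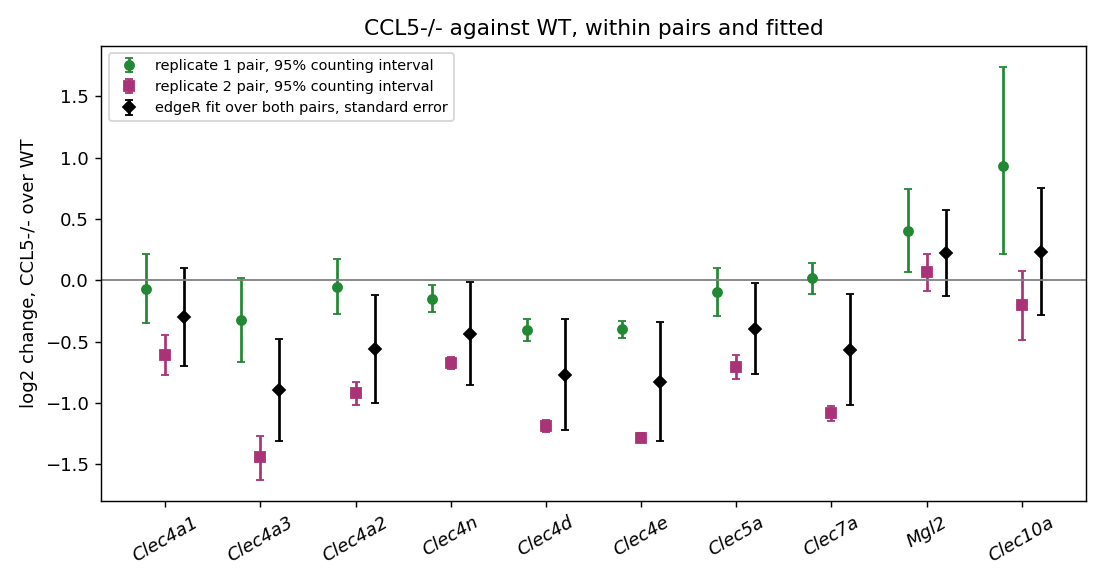
Log2 change, CCL5-/- over WT, of each receptor gene: green circles the replicate 1 pair and purple squares the replicate 2 pair, both with 95% counting intervals, and black diamonds the edgeR fit over all 4 libraries with its standard error. The replicate 2 pair lies below the replicate 1 pair for each gene, from Clec4a3 at -1.44 to Mgl2 at 0.06.

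The 10 members took 0.215% and 0.257% of counts outside Rn45s in WT replicates 1 and 2 and 0.195% and 0.131% in CCL5-/-. Unlike that share, those within the family do not depend on how libraries are scaled. Of the members' reads, Clec4e took 39.6% and 38.6% in WT and 36.0% and 32.8% in CCL5-/-, whereas Mgl2 took 1.36% and 1.32% in WT and 2.16% and 2.85% in CCL5-/-. The ratio of Clec4e to Mgl2 was thus 29.1 and 29.2 in WT and 16.7 and 11.5 in CCL5-/-, a ratio chosen after its values were seen and given with no test. Clec4d took 22.8%, 19.6%, 20.7% and 17.8% in the same order of libraries. Clec4n, in the other direction, took 14.0% and 15.1% in WT and 15.1% and 19.6% in CCL5-/-.

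Markers of cells that carry these receptors differed between the libraries too. In bulk RNA, fewer cells of a type and less RNA per cell cannot be told apart. Neutrophils, which also express Clec4d, Clec4e and Clec5a, had 15 of 16 listed markers in the table (not Ly6g). Their summed level was 3882 and 610.206 CPM in WT and 790.419 and 349.977 CPM in CCL5-/-, with only Mpo (CCL5-/- replicate 1) and Elane (CCL5-/- replicate 2) at 0 reads. S100a9 (1834 and 366 CPM in WT, 358 and 197 CPM in CCL5-/-) and S100a8 (973 and 102, 150 and 80.9) made up most of it in every library. The 13 tested had a median log2 change of -2.46, and 12 were lower in both pairs, against 26.5% of all genes. Their pair medians were -2.69 (replicate 1) and -0.94 (replicate 2), beside -0.08 and -0.81 for the receptors. In 2 of the 13 the groups were apart with CCL5-/- below, against 8.24% of all genes. Between replicate numbers 10 of the 13 passed in edgeR, all lower in replicate 2, against 31.8% of all genes. The median log2 change of the 13, replicate 2 over replicate 1, was -2.69. The 10 monocyte markers summed to 5066 and 3416 CPM in WT and 3953 and 2735 CPM in CCL5-/-. Most of that sum came from Fn1 (2693 and 723 CPM in WT, 2092 and 1026 CPM in CCL5-/-) and Cd14 (1326 and 1885, 1009 and 1283). The 12 mature macrophage markers summed to 1622 and 2996 CPM and to 1555 and 2094 CPM. The 12 dendritic cell markers summed to 255 and 353 CPM and to 236 and 316 CPM. None of these 3 lists had a marker at 0 in any library. The 10 markers of alternatively activated macrophages, which share their use with Mgl2 and Clec10a, summed to 913 and 584 CPM in WT and 1216 and 553 CPM in CCL5-/-. T cell markers (7 in the table) summed to 27.7 to 63.7 CPM over the 4 libraries, NK cell markers (8) to 100 to 392 CPM and B cell markers (6) to 5.50 to 88.6 CPM, with Cd79a, Ms4a1 and Pax5 at 0 in WT replicate 1. Epithelial markers (7) summed to 102 to 182 CPM, fibroblast markers (7) to 703 to 1047 CPM and endothelial markers (6) to 14.2 to 22.5 CPM. What part these cells have in the receptor values was not tested.

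The libraries were also compared by replicate number, where no receptor passed. With edgeR and genotype as a term, 31.8% of genes passed between replicates 2 and 1, and 0 of the 10 receptors did. The receptors' log2 differences ran from -0.44 for Clec4a1 (SE 0.23, adjusted p = 0.15) to 0.53 for Clec10a (SE 0.36, adjusted p = 0.279), with Clec4e at -0.09 (SE 0.27) and Clec4d at -0.21 (SE 0.26). Both replicate 2 libraries lay below both replicate 1 libraries for 1 member, Clec4a1, against 34% of genes, and above them for 1, Clec10a, against 34.2%. An adjusted p above the threshold does not show equal levels. With the replicate number as a term in the genotype fit, 10 genes passed (0.0787%), none of them a member. Among those 10 were 3 of the listed neutrophil markers and 1 fibroblast marker, all lower in CCL5-/-. The lowest adjusted p among members in that fit was 0.417, for Clec4a3.

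Several signalling genes of the pathway passed between replicate numbers. Of 25 adaptor and signalling genes listed for the pathway, all tested, 13 passed between replicate numbers, 3 higher and 10 lower in replicate 2, against 31.8% of all genes. The kinase gene Syk had 280 and 87.1 CPM in WT and 223 and 57.4 CPM in CCL5-/-, a log2 difference of -1.82 (edgeR adjusted p = 5.5e-05). Malt1, which works with Card9 and Bcl10, was lower in replicate 2 too, at -2.08 (edgeR adjusted p = 0.000498). Fcer1g, the adaptor of Mincle, MCL and Dectin-2, was higher there by 0.85 (edgeR adjusted p = 0.0125), and Card9 had -0.74 (edgeR adjusted p = 0.037).

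Between genotypes, 0 of the 25 signalling genes passed in edgeR. Their median log2 change was -0.23, 17 were below 0 (51.9% of all genes), and 14 were lower in both pairs (26.5%). Fcer1g was at 107 and 235 CPM in WT and at 98.3 and 147 CPM in CCL5-/-, overlapping, with -0.48 (SE 0.53). Tyrobp, the Clec5a adaptor gene, was at 361 and 496 CPM in WT and at 321 and 207 CPM in CCL5-/-, with the groups apart, -0.70 (SE 0.48) fitted, and -0.17 and -1.26 in the pairs. Syk had -0.39 (SE 0.85) and Card9 -0.25 (SE 0.47). The smallest p belonged to Hcst, an adaptor gene of low level (8.07 and 5.49 CPM in WT, 4.18 and 4.04 CPM in CCL5-/-), followed by Tyrobp. Fgr, a Src family kinase gene, had -0.62 (SE 0.53) and Ptpn6, the phosphatase SHP-1 recruited by inhibitory receptors, -0.39 (SE 0.38). In all, 4 of the 25 had CCL5-/- below WT without overlap, Hcst, Tyrobp and Ptpn6 among them, and 0 above, against 8.24% and 8.36% of all genes.

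**Figure D3:**
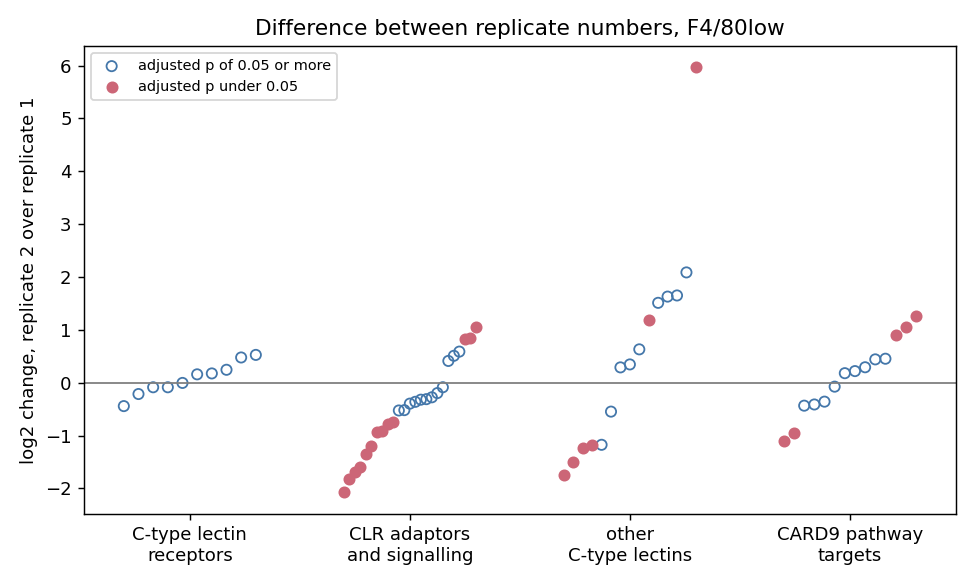
Log2 change, replicate 2 over replicate 1, with genotype as a term, for the receptors and for the 3 listed gene groups. Each point is 1 gene, ordered by value within its group, and filled red where the edgeR adjusted p was under 0.05. No receptor is filled, and their values stay between -0.44 and 0.53.

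Other C-type lectin genes were mixed in direction. Of 28 listed, 15 passed the filter on low counts and the other 13 had too few reads. None passed between genotypes, with a median log2 change of -0.22, 4 lower and 5 higher in both pairs (26.5% and 24.8% of all genes). Mrc1, the mannose receptor of macrophages, was at 208 and 89.3 CPM in WT and at 362 and 105 CPM in CCL5-/-, a log2 change of 0.65 (SE 0.75), with 0.80 and 0.24 in the pairs. Groups were apart with CCL5-/- above for 1 of the 15 (8.36% of all genes) and below for 1 (8.24%), near those shares. The first was Cd209a, a DC-SIGN homologue, at 2.40 and 1.94 CPM in WT and 4.18 and 2.50 CPM in CCL5-/-. It had only 14 to 68 reads per library. The second was Cd302 (10.5 and 14.2 CPM in WT against 8.49 and 10.1 CPM in CCL5-/-). Between replicate numbers 6 of the 15 passed, near the 31.8% of all genes, with 2 higher and 4 lower in replicate 2, Mrc1 among the latter (-1.502, edgeR adjusted p = 0.000347).

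Genes listed as targets of Card9 signalling, mostly of cytokines and chemokines and also the enzyme genes Nos2 and Ptgs2, were all 14 tested, and 0 passed between genotypes. The median was -0.18, with 6 lower and 4 higher in both pairs (26.5% and 24.8% of all genes), and 5 had CCL5-/- below WT without overlap (8.24%). Those were Il12b (9.10 and 11.9 CPM in WT, 5.11 and 7.23 CPM in CCL5-/-), Ccl4 (477 and 781 against 404 and 334), Ccl3 (423 and 399.692 against 328 and 190), Tnf (268 and 316 against 238 and 182) and Il1b (2222 and 3269 against 2118 and 1848). Each of these had a negative value in both pairs, from -0.07 for Il1b in replicate 1 to -1.22 for Ccl4 in replicate 2. Cxcl1, a neutrophil-attracting chemokine, was above WT in both CCL5-/- libraries (993 and 1370 against 1376 and 1494 CPM). The growth factor gene Csf2 had 0.62 (SE 0.65), with 1.18 and 0.41 in the pairs. Between replicate numbers 5 of the 14 passed, near the 31.8% of all genes, with 3 higher and 2 lower in replicate 2.

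The second comparison set the 2 libraries labelled F4/80hi against each other, with no replicate check and no test. Ccl5 went against the labels, with 15.7 FPKM under the WT label and 145 FPKM under the CCL5-/- label, and the sample titles name the opposite genotypes. Of the 10 receptors, 8 were higher in the library labelled CCL5-/-, as were 47.7% of 11670 genes with at least 1 FPKM in either library. None of the 10 differed by 2-fold, against 3.92% of genes. Clec4e was at 320 FPKM in the library labelled WT and 455 in that labelled CCL5-/- (log2 difference 0.51, computed on FPKM + 1), and Clec4d at 330 and 452 (0.45). Clec4a3 had 30.7 and 38.5 (0.32) and Clec4n 280 and 317 (0.18). Clec5a had 31.3 and 35.8 (0.19), Clec4a1 31.8 and 36.2 (0.18), Clec7a 114 and 123 (0.11) and Clec4a2 39.9 and 41.1 (0.04). In the other direction were Clec10a, with 6.70 and 3.51 (-0.77), and Mgl2, with 22.3 and 17.7 (-0.32). For each of the 10 the authors' lower and upper bounds of the 2 libraries overlapped. The locus listed for Clec5a spans 381576 bases, where the gene has 10908, so its FPKM may be less exact.

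Member by member, these ratios repeated those of the F4/80low replicate 1 pair with the labels exchanged. From the FPKM ratio, WT replicate 1 was predicted to hold 49.3% of the Clec4e reads of the replicate 1 pair, and it held 47.2%. For Clec10a 26.4% was predicted and 25.9% found, and for Clec4a2 41.3% and 41.2%. Observed minus predicted ranged over the 10 members from -2.31 percentage points (Clec7a) to -0.065 (Clec4a2). The F4/80hi values are therefore not a further replicate of the F4/80low result.

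**Figure D4:**
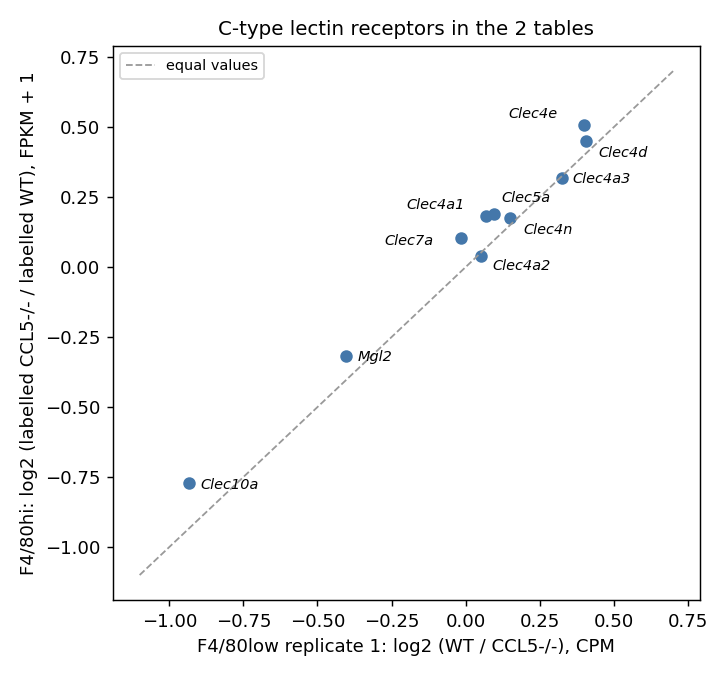
Each point is 1 receptor gene: horizontally the log2 ratio of WT to CCL5-/- in the F4/80low replicate 1 pair (CPM), vertically the log2 ratio of the library labelled CCL5-/- to that labelled WT in F4/80hi (FPKM + 1). The points follow the dashed line of equal values, from Clec10a at -0.93 and -0.77 to Clec4e at 0.40 and 0.51.

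In the authors' deposited table of their own F4/80low comparison, 0.00556% of genes, Ccl5 alone, had an adjusted p under 0.05. In the authors' deposited table the members had the same signs as here, from -0.47 for Clec4e (SE 0.28, adjusted p = 1.0) and -0.45 for Clec4a3 to 0.13 for Mgl2. Their scaling is not stated, and no size is compared with the fitted values.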

How the data were processed

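By the labels, RNA sequencing of sorted TAMs gave 4 F4/80low libraries and 2 F4/80hi libraries. The latter are counted here as the same 2 libraries as the F4/80low replicate 1 pair. Genotype and gate follow the labels. The F4/80hi titles name the other genotype. The authors deposited whole-number read counts per gene for F4/80low, FPKM per gene with bounds for F4/80hi, and a table of their own comparison with log2 fold changes, p-values and adjusted p-values. The submitters' processing notes name Cufflinks 2.2.1 and TopHat2 2.1.1, and also STAR, HTSeq, cutadapt, FastQC, bcl2fastq 2.17.1.14 and DESeq2. The sources used here do not give their roles or the build. Loci of the FPKM table overlapped the GRCm38 gene of the same symbol (GENCODE M21) for 99.02% of 20919 symbols, so RefSeq GRCm38.p6 coordinates are printed. Whether counting used strand is not stated.

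The main test of counts was the robust two-sided quasi-likelihood test of edgeR 4.0.16 (R 4.3.3), after filterByExpr and TMM scaling, adjusted by Benjamini-Hochberg over 12710 genes at 0.05. No row lacked a gene name. A standard error is the log2 change divided by the square root of F. Pair values are log2 ratios of CPM + 0.1. FPKM ratios used a pseudocount of 1, a scale that understates changes of low genes. Depth behind FPKM is unknown, so no interval is given. Alternatives were DESeq2 1.42.0, limma-voom (limma 3.58.1), other size factors, no filter, Rn45s left out, a replicate term and leaving out each library. Scripts were tested on simulated counts. Members, gene lists and tests were chosen with earlier results of these data known. All members were named, with Ccl5, Itgam, Adgre1, Rn45s, Fcer1g, Tyrobp, Syk and Card9 and up to 6 genes of each pathway list by smallest p. Not every gene so chosen is reported here. Genes named for passing between replicate numbers, or for groups that do not overlap, were chosen after their values were seen.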

Additional observations from a re-analysis of the deposited data

Results flagged for a closer look

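Of the 10 receptors, 8 differed in direction between the gates as labelled. In F4/80low both same-numbered pairs had one sign, and the single F4/80hi difference (labelled CCL5-/- over labelled WT) had the other. The F4/80hi log2 difference was 0.18 for Clec4a1, 0.041 for Clec4a2, 0.32 for Clec4a3, 0.45 for Clec4d, 0.51 for Clec4e, 0.18 for Clec4n and 0.19 for Clec5a, all of which were lower in CCL5-/- in both F4/80low pairs. It was -0.32 for Mgl2, which was higher in both. The difference was not tested. Beside it stand 3 measurements: Ccl5 had 15.7 FPKM under the WT label and 145 FPKM under the CCL5-/- label, the titles name the opposite genotypes, and these libraries matched the F4/80low replicate 1 pair crosswise (median chi-square 0.334). With both pairs counted as the same 2 libraries, opposite signs come with the exchanged labels. The count of 8 is therefore no comparison of gates, and its share over all genes was not computed.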

How the results depend on the processing

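No receptor passed under any of the 12 alternatives tried for the genotype comparison, 10 planned and 2 added after seeing the data. The number of receptors with a negative change was 7 to 9 with 1 library left out, 8 in the other fits, 7 in the replicate 1 pair alone and 9 in the replicate 2 pair alone, the last 2 added after seeing the data. Genes that passed over the whole table numbered 0 in edgeR, 1 in DESeq2, 0 to 4 with 1 library left out (4 without WT replicate 2, 1 each without WT replicate 1 and without CCL5-/- replicate 2, 0 without CCL5-/- replicate 1), 10 with the replicate block, and 23 in DESeq2 and 31 in limma-voom with the replicate block. The replicate number was no stated pairing. Deviations of same-numbered libraries correlated at 0.728 across 12710 genes, and with 2 pairs this cannot settle it. With the block the lowest adjusted p among receptors was 0.417 in edgeR and 0.171 in limma-voom, both for Clec4a3, and 0.508 in DESeq2, for Clec4e. An unadjusted p under 0.05 was then reached by 3 receptors and 745 of 12710 genes in edgeR, 4 and 1033 in limma-voom, and 3 and 330 in DESeq2.

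Signs turned for Clec10a without WT replicate 1 (-0.19) and in the replicate 2 pair (-0.20), for Clec4a1 without CCL5-/- replicate 2 (0.015) and for Clec7a in the replicate 1 pair (0.017). With 1 library left out in turn, the remaining one of its group being assumed to vary like the others, Clec10a ranged from -0.19 to 0.95 and Clec4a1 from -0.65 to 0.015. Between replicate numbers, values near 0 turned for Clec4a3 (0.082 with no filter, 0.025 without Rn45s, 0.16 with no genotype term), Clec4e (0.00015 with no filter, 0.038 with no genotype term) and Clec5a (0.00016 with no filter). No receptor passed there under any of 5 alternatives. Leaving out a library was not run for that comparison, since no residual degrees of freedom would remain. With a pseudocount of 0.1, 854 genes were 2-fold apart in F4/80hi instead of 458, and Clec10a moved to -0.91. The depth of the replicate 1 libraries limits Clec10a most, with 21 and 60 reads.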
